A study of Drosophila busckii and Drosophila melanogaster and Drosophila virilis with 5 samples.

Results

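MicroRNA genes encode short hairpins, and 130 of them were placed on the 5 long chromosome arms of the D. virilis Hi-C assembly. They were chosen by name, as every gene whose symbol after the species prefix begins with mir- and that lies on 2L, 2R, 3L, 3R or X, out of 14556 genes in the deposited annotation and 14388 on these arms. By arm they numbered 27 on 2L, 26 on 2R, 20 on 3L, 32 on 3R and 25 on X. In situ Hi-C, in which loci that touch in the nucleus are ligated and sequenced, had been carried out on whole mixed-sex D. virilis embryos of stage 15 to 16 (San Diego stock center, stock labelled 15010-1051.0), for which the labels name no allele or treatment. The same assay on stage 15 to 16 embryos of D. melanogaster, strain w1118 Oregon R, served for values of the same genes in a second species. Each species had 1 contact map, merged by the authors from 2 replicates, and 1 boundary list. A boundary separates neighbouring topologically associating domains, or TADs, and loci inside a TAD meet each other more often than they meet loci of the next one. Whole embryos mix all cell types, so a boundary present in some cells only cannot be told apart from a weak one. With 1 list per species there is no replicate spread, and all comparisons below are descriptions without a test.

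A microRNA is cut from a folded primary transcript, first by Drosha in the nucleus and then by Dicer in the cytoplasm, and is loaded into an Argonaute protein. It finds messenger RNAs mainly through its seed, bases 2 to 8 from the 5′ end, and lowers their translation or stability. Several hairpins can sit in 1 primary transcript as a cluster, and others sit in the introns of protein-coding genes. A mirtron is a hairpin that is itself a very short intron, so that splicing replaces the cut by Drosha.

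The sequences shown here are D. melanogaster mature microRNAs of the same symbol, read from the RefSeq release 6 genome and its annotation, since no D. virilis sequence was used here. Of the 130 D. virilis genes, 110 had the same symbol in D. melanogaster. Capitals mark the seed. The first set lies close to a boundary in the D. virilis map, within 1000 bp of a boundary centre.
mir-305-5p (chr2L:7425979-7426001, plus strand): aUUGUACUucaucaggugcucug
mir-275-3p (chr2L:7425853-7425875, plus strand): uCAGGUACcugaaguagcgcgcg
mir-92b-3p (chr3R:25651457-25651478, plus strand): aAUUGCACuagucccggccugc
mir-210-3p (chrX:18128270-18128292, plus strand): cUUGUGCGugugacagcggcuau

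The second set shows the seed that the most members shared. AUCACAG was the seed of 12 of the 110 genes, all from the 3′ arm of the hairpin, and these 12 were spread over 4 clusters and 2 genes outside clusters. The family is known in D. melanogaster for repressing pro-apoptotic genes.
mir-2a-1-3p (chr2L:19569902-19569924, minus strand): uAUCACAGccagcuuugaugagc
mir-2c-3p (chr3R:15417761-15417783, minus strand): uAUCACAGccagcuuugaugggc
mir-13a-3p (chr3R:15417548-15417569, minus strand): uAUCACAGccauuuugaugagu
mir-13b-1-3p (chr3R:15417412-15417433, minus strand): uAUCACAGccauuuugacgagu
mir-11-3p (chr3R:21622504-21622524, minus strand): cAUCACAGucugaguucuugc

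The third set comes from introns short enough to be the hairpin itself. In D. melanogaster the 4 mature forms below begin on the first base or end on the last base of the host intron, and each 3p sequence closes with ag, the last letters of nearly all introns.
mir-1003-3p (chr3R:24658639-24658660, plus strand): uCUCACAUuuacauauucacag
mir-1006-3p (chr2L:16724795-16724817, minus strand): uAAAUUCGauuucuuauucauag
mir-1010-5p (chr3R:22292879-22292899, plus strand): gUAAGUGGuguagaugaaaca
mir-1010-3p (chr3R:22292926-22292949, plus strand): uUUCACCUaucguuccauuugcag

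The fourth set is the antisense pair of the bithorax complex, where both strands of 1 stretch of DNA give a microRNA. The mature iab-8-3p comes from the strand opposite iab-4-5p, and the seeds of the 4 mature forms differ.
mir-iab-4-5p (chr3R:16856281-16856302, plus strand): aCGUAUACugaauguauccuga
mir-iab-8-3p (chr3R:16856278-16856299, minus strand): gGAUACAUucaguauacguuua
mir-iab-4-3p (chr3R:16856315-16856338, plus strand): cGGUAUACcuucaguauacguaac
mir-iab-8-5p (chr3R:16856315-16856337, minus strand): uUACGUAUacugaagguauaccg

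The last set holds microRNAs with well-known roles in flies whose domains are described below. mir-100 and mir-125 belong to the let-7 complex of developmental timing, mir-1 acts in muscle, mir-124 in neurons, mir-34 in ageing, and mir-277 in the breakdown of branched-chain amino acids.
mir-100-5p (chr2L:18471445-18471466, plus strand): aACCCGUAaauccgaacuugug
mir-125-5p (chr2L:18472343-18472364, plus strand): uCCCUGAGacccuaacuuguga
mir-1-3p (chr2L:20487496-20487517, plus strand): uGGAAUGUaaagaaguauggag
mir-124-3p (chr2L:17566426-17566448, plus strand): uAAGGCACgcggugaaugccaag
mir-34-5p (chr3R:10100952-10100975, plus strand): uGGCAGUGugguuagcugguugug
mir-277-3p (chr3R:10100080-10100102, plus strand): uAAAUGCAcuaucugguacgaca

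The D. virilis annotation gave the 130 genes as hairpins of 58 to 187 bp with a median of 94 bp. The longest was mir-989 at 187 bp and the shortest mir-315b at 58 bp. In total 180 mature microRNAs were annotated. Both arms of the hairpin carried one in 50 genes, only the 3p arm in 49 and only the 5p arm in 31. The plus strand held 55 genes and the minus strand 75. Among the 110 genes with a D. melanogaster namesake the hairpin was longer in D. virilis in 50, shorter in 47 and of equal length in 13. The medians were 92.5 and 92 bp. This balance pooled different series of gene identifiers. In the higher-numbered series most hairpins were longer in D. virilis, as in mir-1010 (120 against 71 bp) and mir-929 (118 against 88 bp). In the lower-numbered series more were shorter than longer, as in mir-263b (71 against 90 bp) and mir-287 (68 against 93 bp).

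MicroRNA genes were often neighbours. With a cluster defined as genes of 1 strand with gaps of at most 10 kb, 63 genes fell into 22 clusters and 67 stood alone. There were 11 clusters of 2 genes, 7 of 3, 3 of 4 and 1 of 8. Clusters lay on 2L (7), 3R (7), X (5) and 2R (3), and none was found on 3L although 20 genes lie there. Spans varied, with 10 clusters under 1 kb and 3 over 5 kb.

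**Figure D1:**
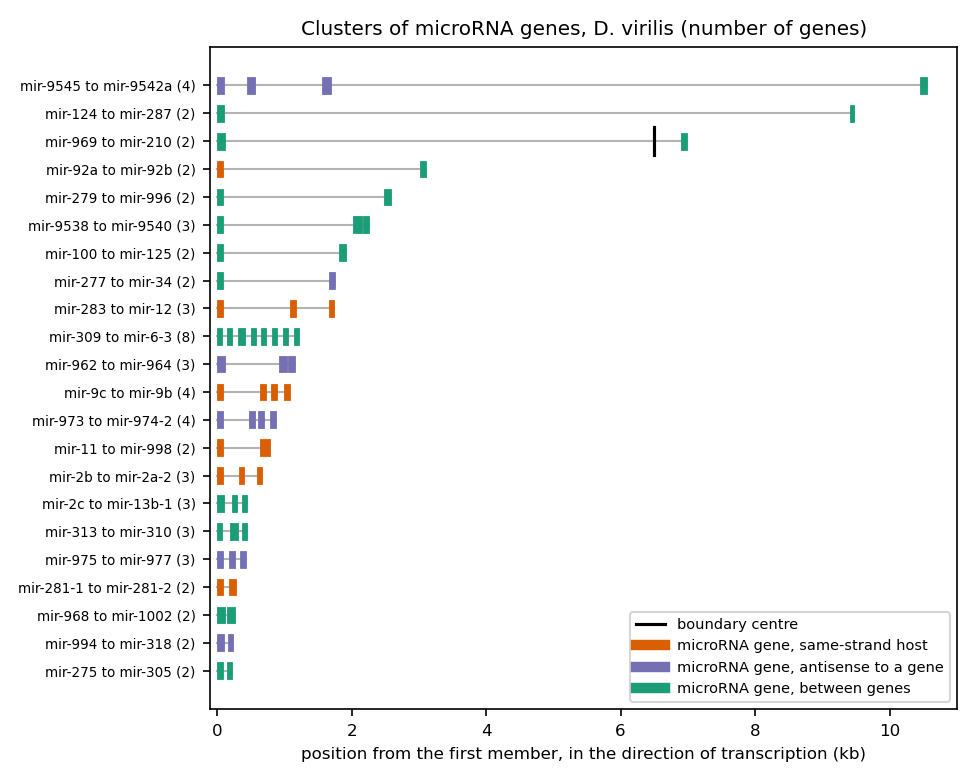
Each line is 1 of the 22 D. virilis clusters, drawn from its first member in the direction of transcription, with position in kb on the x axis and the number of genes in brackets. Boxes are microRNA genes to scale, coloured by whether they lie in a gene of the same strand, only antisense to a gene, or between genes, and the black line marks the single boundary centre inside a cluster, between mir-969 and mir-210.

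The largest cluster was that of mir-309, whose microRNAs clear maternal messenger RNAs in the early D. melanogaster embryo. Its 8 genes, from mir-309 through mir-3, mir-286, mir-4, mir-5, mir-6-1 and mir-6-2 to mir-6-3, occupied 1224 bp of 2R (21814623 to 21815846, minus strand) with gaps of 74 to 100 bp. All 8 lay between 47.8 and 49 kb from the nearest boundary, inside a 609 kb TAD that held 36 coding genes. That TAD contains a joint between assembled scaffolds 56 to 57.2 kb from the 8 genes, and its length therefore rests on the Hi-C scaffolding.

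Members of the AUCACAG family lay in several of the small clusters. On 2L, mir-2b (whose seed was not read, for want of a namesake), mir-2a-1 and mir-2a-2 spanned 666 bp and lay 5.16 to 5.76 kb from a boundary of score -0.297. On 3R, mir-2c, mir-13a and mir-13b-1 spanned 444 bp and lay 6.86 to 7.24 kb from a boundary of score 0.0882. The score is taken to be the TAD-separation score of HiCExplorer, which is lower where fewer contacts cross, although the list itself does not state its direction. Its quartiles on the 5 arms were -0.15, -0.0535 and 0.0615. The first of these boundaries was thus under the lower quartile and the second over the upper quartile. The remaining members of the family sat in 4 further domains: mir-11 in a TAD of 25.3 kb, mir-13b-2 in one of 172 kb, mir-308 in one of 9.65 kb, and mir-5 with the mir-6 genes in the 609 kb TAD.

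The other compact clusters differed widely in the domain around them. The pair mir-275 and mir-305 spanned 218 bp, mir-994 and mir-318 spanned 233 bp, and mir-968 and mir-1002 spanned 261 bp. Their TADs measured 59.4, 12.2 and 340 kb. The mir-310 family (mir-313, mir-311, mir-310) spanned 441 bp in a TAD of 35.8 kb, and mir-975, mir-976 and mir-977 spanned 433 bp in a TAD of 60.6 kb. A cluster of mir-973, mir-9547, mir-974-1 and mir-974-2 over 881 bp shared this last TAD, which thus held 7 microRNA genes beside 3 coding genes. The mir-9538, mir-9539 and mir-9540 cluster spanned 2.26 kb in a TAD of 446 kb, and mir-962, mir-963 and mir-964 spanned 1.16 kb in a TAD of 361 kb.

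Among 22 clusters, 21 lay inside a single TAD and 1 had a boundary centre between its members. In that pair mir-969 and mir-210 stood 6776 bp apart on the minus strand of X. The boundary (6656252 to 6657936, score -0.133) put mir-969 in a TAD of 178 kb and mir-210 in one of 13.4 kb. Mir-210 started 0.406 kb from the boundary centre and inside its interval, while mir-969 started 6.49 kb away. With a gap limit of 3 kb the pair was no cluster, and no cluster was cut. Only 3 of the 22 clusters spanned over 5 kb, so most left little room for a boundary. Stretches of like span were not counted for a background.

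Many of the genes lay inside another gene. A host on the same strand was annotated for 41 of 130 genes (31.5%), against a background of 5.79% of all 14388 genes lying wholly inside a gene of the same strand. A short gene fits inside another more easily than a long one, and most of the 14388 were coding genes. This background was thus not matched for length. The share was 12.2% for tRNA genes, 83.1% for snoRNA genes, which guide RNA modification and mostly sit in introns, and 4.47% for coding genes. A further 17 microRNA genes lay only antisense to a gene, and 72 lay between genes. The share over all genes was not counted for either placement, so these counts are not set against a background. The 41 genes had 33 hosts, of which 31 were coding. An intron of every host transcript held 35 of the 41. For 40 of them the intron could be measured, and its length ran from 58 to 57788 bp with a median of 1118.5 bp.

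Only SREBP and Oda among the hosts carry a gene name in the annotation. Mir-33, which acts with its host in lipid metabolism, lay in an intron of 208 bp of SREBP, the sterol response transcription factor, 8.54 kb from a boundary of score -0.39. Mir-281-1 and mir-281-2, 96 bp apart, lay in an intron of 2270 bp of Oda, ornithine decarboxylase antizyme, and at the same time antisense to the 3′ UTR of GJ19907. Their distances to the nearest boundary were 2.98 and 3.16 kb. Both SREBP and Oda also held these microRNAs in D. melanogaster.

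The remaining hosts have only GJ identifiers. Clusters inside 1 host were mir-2b, mir-2a-1 and mir-2a-2 in GJ18009, mir-9c, mir-306, mir-79 and mir-9b in GJ22747, mir-283, mir-304 and mir-12 in GJ19140, and mir-11 and mir-998 in GJ23948. In D. melanogaster their namesakes (none was found for mir-2b) lie in spi, which encodes an EGF receptor ligand, in grp, a checkpoint kinase, in Gmap, a Golgi protein, and in E2f1, a transcription factor of the cell cycle. Mir-92a lay in GJ10970, while its cluster partner mir-92b lay beyond the end of that gene. The pairs of single genes and hosts were mir-7 in GJ17213, mir-184 in the noncoding GJ25665, mir-274 in the noncoding GJ25649, mir-307 in GJ20836, mir-308 in GJ22302, mir-986 in GJ21711, mir-987 in the overlapping GJ21087 and GJ21089, mir-988 in GJ22442, mir-932 in GJ21312 and mir-1006 in GJ11146. On 3L and X they were mir-263b in GJ11223, mir-958 in GJ13707, mir-190 in GJ13049, mir-970 in GJ15915, mir-9541 in GJ19449, mir-13b-2 in GJ19440, mir-1007 in GJ18784 and mir-927 in GJ18970. On 3R they were mir-929 in GJ14459, mir-999 in GJ14160, mir-995 in GJ25993, mir-1010 in GJ23151, mir-1017 in GJ23817, mir-315b in GJ23770 and mir-1003 in GJ23646.

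Host and microRNA usually shared a domain. For 35 of the 41 hosted genes the start of the host lay in the same TAD, and for 6 a boundary lay between the start of the host and the hairpin. Many hosts were short beside a TAD, and cluster members in 1 host are not separate cases. No background of genes of like length was counted. GJ18009 started 0.699 kb from a boundary of score -0.297, and its 3 microRNAs lay 5.86 to 6.46 kb into the gene on the other side. GJ22302 was 1.23 kb long, and the boundary of score -0.201 fell between its start and mir-308, 0.724 kb downstream. GJ23948 started 37.3 kb before mir-11 and 37.9 kb before mir-998, with a boundary of score 0.0615 in between. The annotated span of these 3 host genes thus ran across a boundary centre before it reached the hairpins.

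A set of 5 microRNA genes sat in introns under 200 bp, and the annotated mature strands met the intron ends. The intron of GJ18784 was 72 bp long and equal to the hairpin of mir-1007, whose 3p strand ended on the last intron base. In the 74 bp intron of GJ23151 the 5p strand of mir-1010 began on the first base and the 3p strand ended on the last base. The 3p strand of mir-1003 ended on the last base of the 58 bp intron of GJ23646. Mir-1006 in the 64 bp intron of GJ11146 had a 5p strand that began on the first base and a 3p strand that ended 3 bp before the last. The hairpins of these last 3 genes were annotated 33 to 46 bp longer than the intron and so overlapped the flanking exons. Mir-1017 differed, since its 78 bp hairpin began on the first base of a 199 bp intron of GJ23817 and left a tail, with the mature strand 52 bp from the first base. In D. melanogaster the hairpins of mir-1003, mir-1006, mir-1007 and mir-1010 had exactly the length of their introns (56, 64, 65 and 71 bp), and that of mir-1017 covered 71 of 169 bp.

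**Figure D2:**
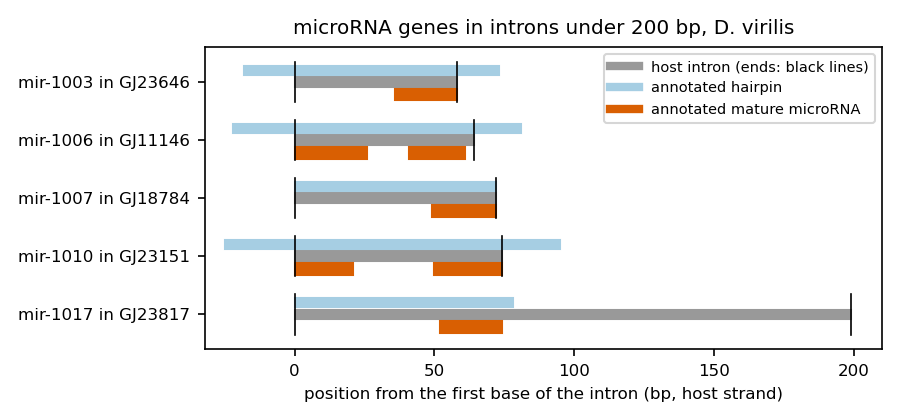
The 5 D. virilis host introns under 200 bp, with position in bp from the first intron base on the host strand, drawn to scale. Grey bars with black ends are introns, blue bars annotated hairpins and orange bars annotated mature microRNAs: in mir-1007 the hairpin equals the 72 bp intron, and in mir-1010 the 2 mature strands touch both ends of the 74 bp intron.

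Antisense placement was concentrated in few genes. The 17 genes found only antisense lay in 6 genes: 7 in GJ15837 (mir-973, mir-9547, mir-974-1, mir-974-2, mir-975, mir-976 and mir-977), 3 in GJ12336 (mir-962, mir-963, mir-964), 3 in GJ19449 (mir-9545, mir-9544a, mir-9543a), 2 in GJ23540 (mir-318, mir-994), and mir-31b in GJ15394 and mir-34 in GJ10720. All 7 genes in GJ15837 occupied 1 intron of 23831 bp. GJ19449 also hosted mir-9541 on its own strand, so that its intron of 17740 bp held microRNA genes of both strands.

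The median microRNA gene lay farther from a boundary than the median gene. So did the median of tRNA genes and of other noncoding genes, while that of snoRNA genes lay nearer. The distance from the start of the hairpin to the nearest boundary centre had a median of 19.4 kb and ran from 0.298 to 276 kb, against a median of 11.2 kb for all genes and 10.9 kb for coding genes. The median was 15.6 kb for tRNA genes and 22.6 kb for other noncoding genes, so microRNA genes lay between these classes. It was 4.64 kb for snoRNA genes and 11.5 kb for the 30 snRNA genes. For a microRNA the annotated start is the 5′ end of the hairpin and not the transcription start, which the annotation does not give. Within 1000 bp of a boundary centre lay 5 of 130 microRNA genes (3.85%), against 13.2% of all genes, 13.7% of coding genes and 7.41% of tRNA genes. Within 5000 bp lay 25 (19.2%), against 31.5% of all genes. On each of the 5 arms the microRNA median was above the coding median, with the smallest gap on 3R (11.4 and 10.3 kb) and the widest on X (24.8 and 12.9 kb). The same order held when the start of the host was used for the hosted genes (18.7 kb).

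**Figure D3:**
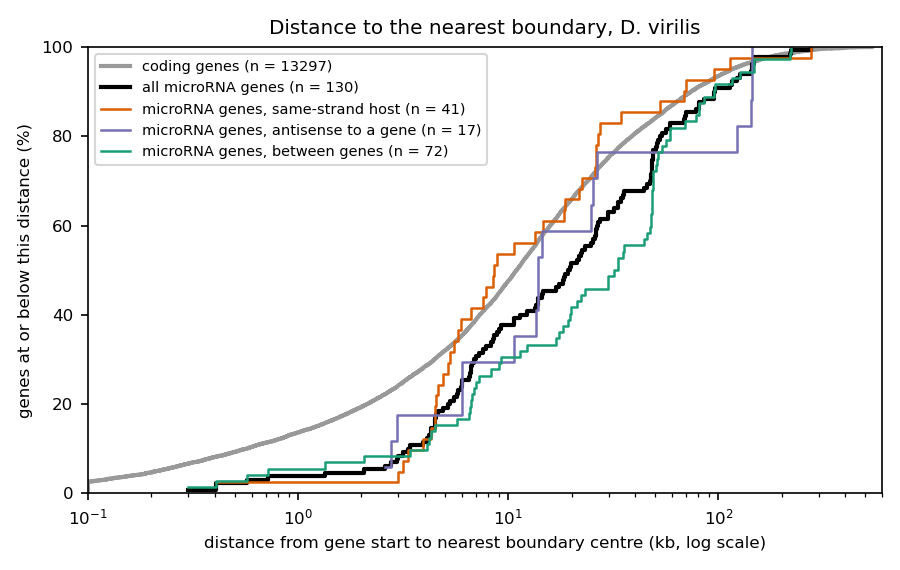
Cumulative share of genes (y axis, %) by distance from gene start to the nearest boundary centre (x axis, kb, log scale) for 13297 coding genes, all 130 microRNA genes and the microRNA genes by placement. At 5 kb the line of all microRNA genes has reached 19.2% and that of coding genes 32%, and past about that distance the 41 genes with a same-strand host run close to the coding genes.

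Placement went with distance. The 41 hosted genes had a median distance of 8.54 kb, the 17 antisense genes 13.9 kb and the 72 genes between genes 32.6 kb. The antisense genes lay in only 6 TADs, with 7 of them in GJ15837, so their median rests on few loci. Counted per gene, the hosted median was below the 10.9 kb of coding genes. Yet only 1 of the 41 (2.44%) lay within 1000 bp and 26.8% within 5000 bp, against 13.7% and 32% of coding genes. Clusters supply several of the 41, so the order of the medians is not shown for separate loci. The genes between genes supplied 4 of the 5 within 1000 bp. Members of a cluster are not independent, and with each cluster counted once at its first member 2 of 89 (2.25%) were within 1000 bp and the median distance was 19.8 kb.

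Each of the 5 genes within 1000 bp can be given in full. Mir-92b started 0.298 kb from a boundary centre (3R, 30273273 to 30274404, score 0.0551), just past the end of GJ10970. Mir-210 started 0.406 kb from its boundary on X, described above. Mir-308 started 0.407 kb from a boundary on 2R (8312199 to 8313312, score -0.201) that falls within its own host. Mir-305 and mir-275 started 0.571 and 0.716 kb from a boundary on 2L (22945849 to 22947001, score -0.169). In D. melanogaster mir-305 is known for a role in gut stem cells and mir-210 for one in photoreceptors. The next gene in order was mir-31a at 1.34 kb, outside the limit.

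At the other end, 12 genes lay over 100 kb from any boundary. The 5 farthest were mir-986 at 276 kb, mir-957 at 222 kb, mir-9550 at 220 kb, and mir-276a and mir-280 at 147 kb. The others were mir-964, mir-963 and mir-962 at 144, 144 and 143 kb, mir-287 and mir-124 at 126 and 116 kb, mir-31b at 122 kb and mir-184 at 113 kb. Mir-124 and mir-184 are among the deeply conserved members of the group, and mir-184 acts in the female germ line. Mir-276b, 50.9 kb in total span from mir-276a and in the same TAD, lay 96.7 kb from the boundary.

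The boundaries nearest to microRNA genes had somewhat higher scores, the weaker side if the score runs as in HiCExplorer. The nearest boundary had a median score of -0.0373 for microRNA genes and -0.072 for all genes. For hosted genes it was -0.101, and for genes between genes -0.0225. With only the boundaries of lower scores than the median in use, the median distance was 66 kb against 29.7 kb for all genes.

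Of 2090 TADs on the 5 arms, 76 (3.64%) held a microRNA gene. One gene, mir-981 on X, lay beyond the outermost boundary of its arm, 45.8 kb from it, so 129 genes had a TAD. The 76 TADs had a median length of 84.8 kb, against 39.7 kb for all 2090, though a long TAD has more room for any gene. Counted per gene, which gives long TADs the same weight in each class, the median was 87.2 kb for microRNA genes (9.65 to 619 kb) and 69.4 kb for all genes. The interval of the microRNA median, defined in the last section, ran from 61.7 to 158 kb and so held 69.4 kb. TADs of 150 kb or more held 54 of the 129 (41.9%), against 29.2% of all genes, 32.6% of tRNA genes and 47.7% of other noncoding genes. Scaffold joints moved with this difference. Of the 129 genes 14 were in TADs with a joint, 8 of them the mir-309 cluster, and without such TADs the medians were 68.8 and 65.1 kb and the shares 35.7% of 115 and 27.5%. No gene was within 10 kb of a joint.

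**Figure D4:**
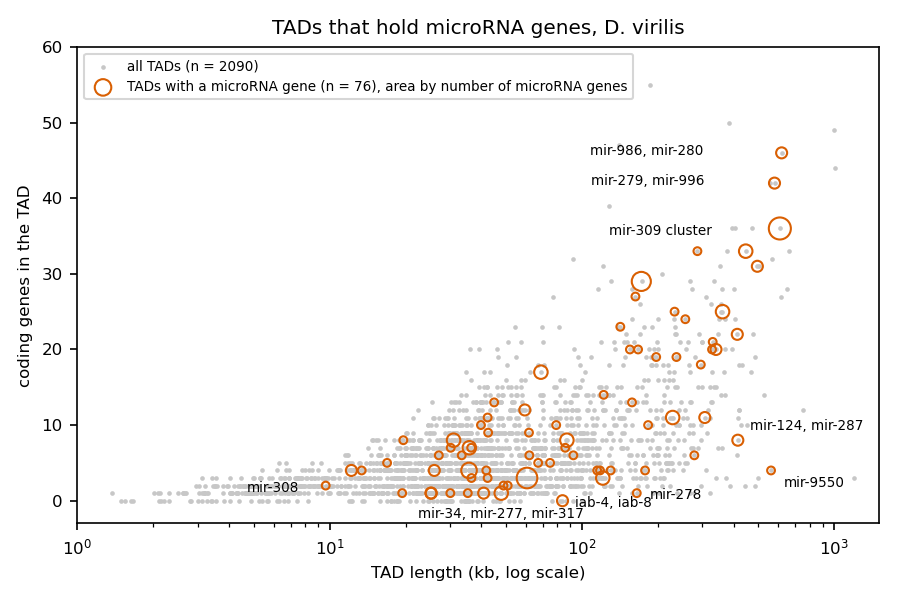
Length (x axis, kb, log scale) and number of coding genes (y axis) of the 2090 D. virilis TADs on the 5 arms (grey), with the 76 that hold a microRNA gene as orange circles whose area grows with the number of microRNA genes. The named domains range from that of mir-308 at 9.65 kb to that of mir-986 and mir-280 at 619 kb, and the iab-4 and iab-8 domain has 0 coding genes at 83.8 kb.

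Coding genes in the same domain were counted next. The median number of coding genes in the TAD was 8 for microRNA genes and 10 for all genes, where each coding gene counts itself. It was also 8 for tRNA genes and for other noncoding genes. The order turned with each TAD counted once (7.5 against 5) and with only the boundaries of scores below the median (24 against 21). The median density was 72.4 coding genes per Mb for microRNA genes and 124 for all genes. Here too each coding gene counts itself, which raises the value over all genes by construction. By placement the density was 112 per Mb for hosted genes, 63.6 for antisense genes and 60.7 for genes between genes. Similar densities were found for tRNA genes (71.6) and for other noncoding genes (65.6), and a higher one for snoRNA genes (196). The median TAD was 67.1 kb for hosted genes, 60.6 kb for antisense genes and 163 kb for genes between genes. The 17 antisense genes lay in only 6 TADs, and 7 of them shared the 60.6 kb TAD of GJ15837, which sets their median. Within its TAD a microRNA gene was not more central than other genes, since the median distance to the nearer end was 0.18 of the length in both.

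The extremes of domain length held microRNAs of different kinds. The 5 longest domains were the 619 kb TAD of mir-986 and mir-280, the 609 kb TAD of the mir-309 cluster, the 580 kb TAD of mir-279 and mir-996, the 562 kb TAD of mir-9550 and the 496 kb TAD of mir-957 and mir-958. Mir-279 and mir-996, which share a seed and act in the specification of sensory neurons, were thus among 42 coding genes, whereas mir-9550 was among 4. The 5 shortest were the TADs of mir-308 (9.65 kb), of mir-318 and mir-994 (12.2 kb), of mir-210 (13.4 kb), of mir-375 (16.9 kb) and of mir-263b (19.4 kb), a microRNA that protects sensory bristles.

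A group of domains held a microRNA gene and almost nothing else that codes for protein. TADs with 0 or 1 coding gene contained 15 of the 129 microRNA genes (11.6%), against 2.43% of all genes, 5.93% of tRNA genes, 5.47% of other noncoding genes and 23.3% of the 30 snRNA genes. A coding gene counts itself, which keeps the share over all genes low by construction. Counted per TAD, such domains were 9 of the 76 with a microRNA gene (11.8%) and 317 of all 2090 (15.2%), so the higher share did not hold in that count. They were 9 TADs, and 10 of the 15 genes lay on 3R. Mir-100 and mir-125 shared a TAD of 40.8 kb with 1 coding gene. Mir-34, mir-277 and mir-317 shared 47.9 kb with 1 coding gene, over a span of 16.1 kb, with mir-317 outside the cluster. Mir-92a and mir-92b shared 25.2 kb and mir-998 and mir-11 shared 25.3 kb, each with 1 coding gene. GJ23948, the host of mir-998 and mir-11, has its midpoint outside their TAD and is not in that count. Single microRNA genes with 1 coding gene were mir-278 (165 kb), mir-252 (35.3 kb), mir-970 (30.1 kb) and mir-263b (19.4 kb). Mir-278 is known for a role in energy balance.

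The pair mir-iab-4 and mir-iab-8 had a domain with 0 coding genes. The hairpins overlapped on opposite strands of 3R, iab-8 at 23804420 to 23804519 and iab-4 at 23804436 to 23804503, in a TAD of 83.8 kb. Both microRNAs repress Hox genes in D. melanogaster. The boundaries on either side had scores of 0.534 and 0.351, both above the upper quartile, and iab-4 started 6.6 kb from the nearer. Mir-10 and mir-993, which belong to the Antennapedia complex in D. melanogaster, lay on either side of a boundary of score 0.307, in TADs of 115 and 85.9 kb. The TAD of mir-10 contains 2 scaffold joints, the nearer 28.1 kb from the gene. The outer boundaries of these TADs were also over the upper quartile, at 0.335 and 0.314.

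Several microRNAs more than a few kb apart shared a domain. In all, 27 TADs held more than 1 microRNA gene and together 80 genes, and 49 held 1. Mir-1 and mir-133, both muscle microRNAs, lay with mir-288 in a TAD of 229 kb on 2L, over 141 kb. Mir-276a and mir-276b, implicated in olfactory memory, lay in a TAD of 307 kb. Mir-955 and mir-282 shared 413 kb and mir-956 and mir-314 shared 26 kb. The clustered pair mir-124 and mir-287 spanned 9.47 kb within a 415 kb TAD that held 8 coding genes. This TAD contains a joint 21.2 kb from mir-124, the smallest such distance for any gene of the group.

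The microRNAs with the best known single roles were placed as follows. Mir-7, which acts in photoreceptor development, lay 18.6 kb from a boundary in a TAD of 42.3 kb. Mir-8, a growth regulator, lay 23.2 kb away in a TAD of 61.9 kb, and mir-14, a regulator of cell death and fat, 16.9 kb away in 41.8 kb. Mir-9a, which limits sensory precursor cells, lay 19.8 kb away in 287 kb, while its relatives mir-9b and mir-9c lay 4.28 and 5.27 kb away in 35.7 kb. Mir-184 was in a TAD of 237 kb and mir-278 29.8 kb from a boundary.

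All 110 genes with a namesake were on the same arm in D. melanogaster. The arms of the D. virilis assembly were named by the authors through alignment with D. melanogaster, so this says that no gene had left its arm. The boundary list of D. melanogaster was placed on release 6, as 88.6% of its 4418 boundary edges coincided within 3 bp with centres of restriction bins of that genome and 1.2% after a shift by 1000 bp. The order of the genes along the clusters did not differ either: of 19 clusters with at least 2 namesakes, 19 had the same order in the direction of transcription. Matching was by symbol, so the order of numbered copies, such as mir-2a-1 with mir-2a-2 and mir-281-1 with mir-281-2, rests on their numbering. In 18 of the 19 clusters, most of them short beside a TAD, the namesakes were in 1 TAD in D. melanogaster as well. The exception was mir-92a and mir-92b, cut by a boundary in D. melanogaster and in 1 TAD in D. virilis, whereas mir-210 and mir-969, cut in D. virilis, shared a TAD of 53 kb in D. melanogaster.

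Spans of several compact clusters differed little between the species. The mir-309 cluster spanned 1059 bp in D. melanogaster and 1224 bp in D. virilis, the mir-13b-1 cluster 438 and 444 bp, the mir-12 cluster 1591 and 1739 bp, and mir-318 and mir-994 233 bp in both. Mir-100 and mir-125 were wider apart in D. virilis (991 and 1923 bp), as were mir-34 and mir-277 (1013 and 1757 bp), and mir-969 and mir-210 (3962 and 6981 bp), while mir-92a and mir-92b were nearer (4992 and 3109 bp). Of 25 D. virilis TADs with at least 2 namesakes, 22 had these genes in 1 TAD in D. melanogaster. Most of the sets are short beside a TAD, and no background of gene sets of like span was counted. Among wide sets, mir-957 with mir-958 (151 kb in D. melanogaster), mir-288 with mir-133 and mir-1 (131 kb), and mir-955 with mir-282 (48.1 kb) shared 1 TAD. The 3 exceptions were the pairs mir-986 and mir-280 (147 kb), mir-276a and mir-276b (45.5 kb), and mir-92a and mir-92b (4.99 kb).

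**Figure D5:**
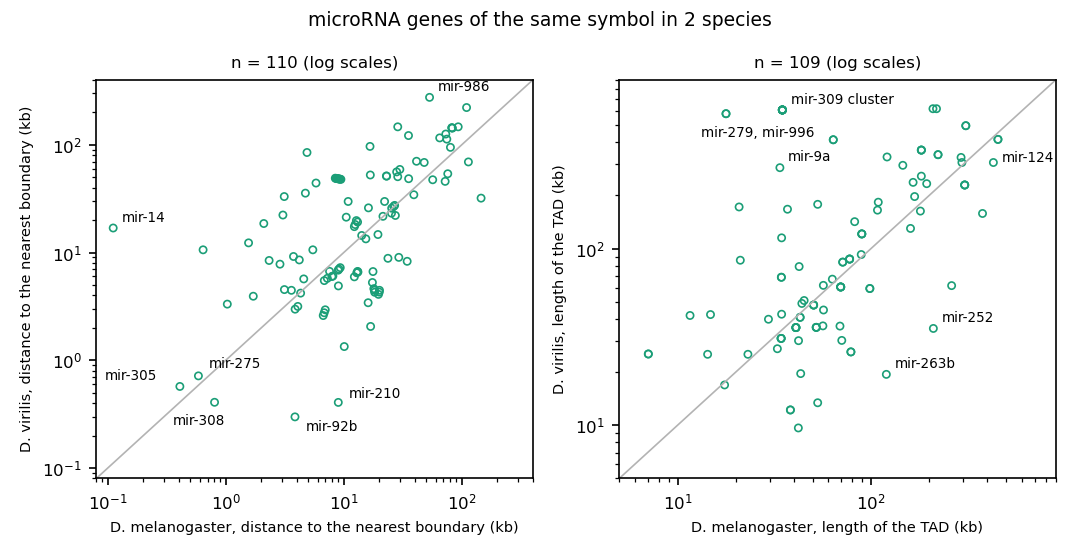
Distance to the nearest boundary centre (left, 110 genes) and length of the TAD (right, 109 genes) for microRNA genes of the same symbol, D. melanogaster on the x axis and D. virilis on the y axis, in kb on log scales, with the line of equal values in grey. Mir-305, mir-275 and mir-308 lie within 1 kb on both axes, and the mir-309 cluster and mir-279 with mir-996 have much longer domains in D. virilis.

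The distance to a boundary can be set side by side for the 110 genes. In D. melanogaster their median was 13 kb, with 9.14 kb for coding genes. In D. virilis it was 17.8 kb, with 10.9 kb for coding genes. In each species 5 of the 110 lay within 1000 bp, and 3 did so in both. These were mir-305 (0.408 kb in D. melanogaster, 0.571 kb in the D. virilis map), mir-275 (0.586 and 0.716 kb) and mir-308 (0.803 and 0.407 kb), the last in RpS23, a ribosomal protein gene, in D. melanogaster. Mir-14 and mir-34 were within 1000 bp only in the D. melanogaster list, at 0.111 and 0.642 kb against 16.9 and 10.6 kb in D. virilis. Within 5000 bp lay 24 genes in D. melanogaster (21.8%, against 32.6% of all genes there) and 25 in D. virilis, 11 of them the same. Of all 258 mir- genes on these arms of D. melanogaster 6.98% had a boundary within 1000 bp, against 16% of coding genes there.

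The length of the domain can be set side by side in the same way. For the 109 genes with a TAD in both lists the median was 56.8 kb in D. melanogaster, where that of coding genes was 53.7 kb and that of all genes 58.1 kb. In D. virilis it was 83.8 kb, with 68.3 kb for coding genes. The median ratio of D. virilis to D. melanogaster was 1.13. The TAD was longer in D. virilis for 62 genes. For 14 genes it was at least 5 times longer: the 8 of the mir-309 cluster (34.8 and 609 kb), mir-279 and mir-996 (17.8 and 580 kb), mir-9a (33.8 and 287 kb), mir-13b-2 (20.8 and 172 kb), and mir-955 and mir-282 (63.8 and 413 kb). Of these only the mir-309 cluster lay in a TAD with a joint. For mir-252 (210 and 35.3 kb) and mir-263b (120 and 19.4 kb) it was at most 0.2 of the D. melanogaster length. TADs of 150 kb or more held 43 of the genes in D. virilis (39.4%) and 26 in D. melanogaster (23.9%), 23 of them in both. Over all D. melanogaster genes this share was 22.7%, so there the members were near the background. Values 5 times apart or more between the species were found for 16 of 109 genes in TAD length and for 24 of 110 in distance. Mir-124 and mir-287 belonged to long domains in both species (453 and 415 kb), as did mir-962, mir-963 and mir-964 (182 and 361 kb).

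The domains with few coding genes were less alike. Of the 15 D. virilis genes in a TAD with 0 or 1 coding gene, 3 had such a TAD in D. melanogaster. They were mir-998 and mir-11 (0 and 1 coding gene) and mir-92b (1 and 1). Genes were counted by midpoint, so E2f1 and GJ23948, the hosts of mir-998 and mir-11, are not in these counts. The TAD of mir-34, mir-277 and mir-317 held 10 coding genes in D. melanogaster (50.5 kb) and 1 in D. virilis (47.9 kb). That of iab-4 and iab-8 held 2 and 0, and that of mir-100 and mir-125 held 5 and 1.

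Hosts were counted in both annotations. A same-strand host was found for 79 of the 110 genes in D. melanogaster and 37 in D. virilis, 36 of them in both. Of the 79, 39 lay only in noncoding genes, a class of which D. melanogaster has 2423 long or antisense RNA genes annotated on these arms, while the D. virilis annotation held 338 other noncoding genes. With coding hosts alone the numbers were 40 in D. melanogaster, 34 of which had a host in D. virilis. The 6 genes with a coding host in D. melanogaster only were mir-965, mir-278, mir-iab-8, mir-284, mir-92b and mir-971. The let-7 complex, mir-34 with mir-277, mir-279 with mir-996 and the mir-309 cluster each lie in an annotated long noncoding gene in D. melanogaster and stood between genes or antisense in D. virilis.

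Namesakes were matched by exact symbol, so a D. melanogaster gene with another suffix was missed. The D. melanogaster cluster of mir-2a-2, for instance, runs to mir-2b-2. A gene without a namesake is therefore not shown to lack a counterpart. No namesake was found for 20 of the 130 genes. They were mir-263a, mir-2b, mir-307, mir-315a, mir-315b, mir-974-1 and mir-974-2, and 13 genes numbered from mir-9538 to mir-9550. The latter lay on X (7), 3R (4) and 3L (2), and 13 of 13 carried a mature microRNA on both hairpin arms, as did 37 of the other 117 genes. All 13 have identifiers of the higher-numbered series of the annotation. Most other genes of that series also carried both, and few of the lower-numbered series did, so the trait is not particular to the 13. None was closer than 13.9 kb to a boundary, and the median was 35.3 kb, against 11.2 kb for all genes. In TADs of 150 kb or more were 10 of the 13, against 29.2% of all genes. Most of the 10 shared a TAD with others of the series, so they are not separate cases. Mir-9538, mir-9539 and mir-9540 shared the TAD of 446 kb. On X, mir-9545, mir-9544a, mir-9543a and mir-9542a formed a cluster of 10.6 kb, the widest of all, with mir-9541 on the other strand inside it, inside a 172 kb TAD that held 29 coding genes and also mir-13b-2.

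A few microRNA genes fell outside the rule by name or by place. Let-7, the timing microRNA, lay between mir-100 and mir-125 at 17.7 kb from the boundary in their 40.8 kb TAD. Bantam, which promotes growth and blocks cell death in D. melanogaster, lay on 3L 9.93 kb from a boundary of score -0.132, and its 24.8 kb TAD held 0 coding genes. Mir-137 was on an unplaced scaffold. Genes of the microRNA pathway (Dcr-1, Dcr-2, drosha, pasha, loqs, AGO1, AGO2, Ranbp21, gw and Hen1) were looked up by symbol, and 0 of 10 were named in the D. virilis annotation, so their domains are not given.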

How the data were processed

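The authors mapped reads with BWA, built contact matrices at restriction-fragment resolution, merged the 2 replicates of a species, corrected the matrices and called boundaries with hicFindTADs of HiCExplorer. The deposited lists give the ends of each boundary and a score, taken to be the TAD-separation score since the list does not name it, which was not set against scores of the other species. The deposited D. virilis genes are a FlyBase annotation that the authors moved to their Hi-C assembly with CrossMap; positions are on that assembly, from 1. The contacts behind a boundary are not in the lists, so the precision of a single boundary is unknown here. A TAD was the stretch between consecutive boundary centres of an arm, coding genes were counted by midpoint, and joints were placed midway between consecutive pieces of the deposited chain file. D. melanogaster genes came from Ensembl (BDGP6), without transposable elements. Hosts had to contain the whole hairpin on its strand. Counts within the boundary windows, in long TADs, in TADs of few coding genes and inside hosts in D. virilis are given beside the same over all genes, and no test was run. The count per TAD of domains with few coding genes and the share in long TADs without joints were added after seeing the data. The members and lists were chosen with earlier results of these data known. Named were all clusters and hosted genes, those within 1000 bp of a boundary, the 5 farthest, those in the 5 longest and 5 shortest TADs, and microRNAs with textbook roles; genes named otherwise were chosen after their values were seen. The position functions were tested on simulated data. Scripts ran under Python 3.11.15 with matplotlib 3.10.9 for the figures, NumPy 2.4.6 for arrays and, for binomial intervals, SciPy 1.17.1. The number of columns not matched to a sample was 0, and the D. busckii files were not used here.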

Additional observations from a re-analysis of the deposited data

How the results depend on the processing

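The counts of members, clusters, cut clusters, hosted genes and genes within 1000 bp and the medians of distance, TAD length and coding genes were recomputed under alternatives that changed 1 choice at a time, and 29 values stayed within the interval of the main median (95%, from the binomial order statistics, covering the spread between genes only) or within 1.5 times the main count. The other 6 were as follows. With only the boundaries whose scores were below the median the median distance was 66 kb in place of 19.4 kb, the median TAD 263 kb in place of 87.2 kb and the median number of coding genes 24 in place of 8, by construction, since fewer boundaries were used; over all genes these were 29.7 kb, 200 kb and 21, so the order of microRNA genes and all genes in coding genes per TAD turned. With a gap of 3 kb, 0 clusters were cut by a boundary in place of 1. A window of 5000 bp took in 25 genes in place of 5, and counting each cluster once left 2. Leaving out each arm in turn gave median distances from 18.5 to 21.3 kb and median TADs from 85.9 to 116 kb. The interval of the main median was 13.4 to 26 kb for distance, 61.7 to 158 kb for TAD length and 6 to 11 for coding genes. It held the median over all genes for TAD length (69.4 kb) and coding genes (10), and not for distance (11.2 kb). Members of a cluster are not independent, so these intervals are no test. Counted per TAD, the median was 7.5 coding genes against 5 over all TADs that hold a gene, so this order also turned. With hosts on either strand 58 genes were hosted. Coding-gene density, the nearest boundary score and the values beside D. melanogaster had no alternative run. No paired analysis was possible because each species had 1 list and the labels carry no replicate numbers.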
